A study of Mus musculus with 24 samples.

Results

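Krüppel-like factors are transcription factors that bind GC-rich and CACCC sequences through C2H2 zinc fingers at their carboxyl end. The 10 members Klf2, Klf3, Klf4, Klf6, Klf9, Klf10, Klf11, Klf12, Klf13 and Klf15 were followed in mouse liver, out of 37074 gene names on the array, of which 21365 were tested. They were chosen by gene name, with earlier results of these data known. Each was read by its probe with the highest mean signal over all 24 arrays. The arrays fell into 4 groups of 6 male mice aged 12 weeks. LWT names albumin-Cre-negative mice with floxed p110α alleles, and LKO names albumin-Cre+/- p110α flox/flox littermates. In LKO the albumin promoter drives deletion of exons of Pik3ca in hepatocytes, and deletion in other liver cells was not tested here. Pik3ca encodes p110α, a catalytic subunit of the phosphoinositide 3-kinase that insulin activates. LWT_Fed and LKO_Fed mice ate freely, whereas the Fasted groups had no food over the last 24 h, and livers were sampled at zeitgeber time 16, in the dark phase. The comparisons ask how these factors respond to fasting and whether that response differs with hepatocyte p110α.

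The family divides by the partners of its amino-terminal regions. Klf9, Klf10, Klf11 and Klf13 recruit the corepressor Sin3A, Klf3 and Klf12 recruit the corepressor CtBP, and Klf2, Klf4 and Klf6 act mainly as activators, while Klf15 belongs to none of these branches. In liver, Klf15 is known as a factor of amino acid breakdown and gluconeogenesis during fasting, Klf9 as a direct target of the glucocorticoid receptor, Klf10 as a gene that follows carbohydrate supply and the circadian clock, and Klf6 as a gene induced in liver injury. Klf2 and Klf4 are best known from endothelial cells, which share the organ with hepatocytes.

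All 10 members were well above background on all 24 arrays. The share of spots called well above background lay between 54.7% and 63.0% by array. Precision is set by 6 mice a group. The lowest correlation between arrays of a group was 0.992 in LWT_Fed, LWT_Fasted and LKO_Fed and 0.985 in LKO_Fasted. The members' results in LKO_Fasted that passed the test, and the calls of the gene lists, are also given without LKO_Fasted replicates 1 and 2. That alternative was chosen after seeing the data. The weights of these arrays in the fit were 0.81 and 0.75, and that of LKO_Fasted replicate 4 was lower, at 0.353. The hepatocyte markers Alb, Ttr, Apoa1, Apob, Cps1, Hnf4a and Serpina1a were well above background on all 24 arrays. The Pik3ca probe ranged from 11.71 to 12.25 in LWT_Fed, 12.05 to 12.42 in LWT_Fasted, 12.30 to 13.02 in LKO_Fed and 12.03 to 12.50 in LKO_Fasted, in log2 signal. It was higher on the arrays labelled LKO when fed, by 0.58 (limma adjusted p = 0.00132), without overlap, differed by -0.02 when fasted (limma adjusted p = 0.925), and had an interaction of -0.60 (limma adjusted p = 0.0279). Its place relative to the deleted exons was not determined, so this probe does not check the labels, and LKO below names arrays by their label.

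For Klf9, Klf11, Klf12 and Klf15, members whose transcripts were called below, the 250 bases before the annotated start are shown. Klf9 and Klf11 were called higher on fasting, Klf12 lower on fasting in LKO, and Klf15 lower in LKO than in LWT when fasted. The sequences are from RefSeq (GRCm38.p6), which matched 9 of the 10 members; Klf10 had no entry. They are written on the gene's own strand, and capitals mark GTAAACA (a FOXO site), CACGTG (an E-box), TGACGTCA (a cAMP response element), TTATGTAA (a D-box) and GGGCGG (a GC box) on either strand, where matches may overlap. Klf9 lies on the plus strand at chr19:23140976-23141225, Klf11 on the plus strand at chr12:24651121-24651370, Klf12 on the minus strand at chr14:100149797-100150046 and Klf15 on the plus strand at chr6:90462326-90462575.
Klf9: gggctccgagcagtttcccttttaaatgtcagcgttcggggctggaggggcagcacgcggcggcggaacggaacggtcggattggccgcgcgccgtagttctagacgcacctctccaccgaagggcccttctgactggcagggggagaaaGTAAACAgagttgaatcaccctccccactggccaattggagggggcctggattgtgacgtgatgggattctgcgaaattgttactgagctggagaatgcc
Klf11: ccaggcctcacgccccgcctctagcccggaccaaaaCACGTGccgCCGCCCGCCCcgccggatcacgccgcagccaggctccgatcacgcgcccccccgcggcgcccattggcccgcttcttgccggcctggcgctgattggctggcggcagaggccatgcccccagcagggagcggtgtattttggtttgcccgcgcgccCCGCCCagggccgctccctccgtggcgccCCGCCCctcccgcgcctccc
Klf12: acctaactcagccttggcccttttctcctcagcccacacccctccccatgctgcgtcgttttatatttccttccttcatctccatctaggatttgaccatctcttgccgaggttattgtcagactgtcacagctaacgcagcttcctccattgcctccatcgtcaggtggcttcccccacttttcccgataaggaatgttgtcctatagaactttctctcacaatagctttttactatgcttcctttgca
Klf15: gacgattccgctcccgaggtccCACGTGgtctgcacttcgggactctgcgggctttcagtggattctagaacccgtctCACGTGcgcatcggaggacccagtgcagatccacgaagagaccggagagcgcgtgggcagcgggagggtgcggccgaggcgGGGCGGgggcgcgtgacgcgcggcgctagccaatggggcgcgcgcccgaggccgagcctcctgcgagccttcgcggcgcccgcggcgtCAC
Over the full window of 300 bases, which adds 50 bases after the start, Klf9 held the only GTAAACA among the 9 members, and 3.65% of the 32851 promoters of the table held it. CACGTG was found in Klf4, Klf6, Klf11 and Klf15, against 7.15% of all promoters. Klf15 held 3 of them, and the capitals that close its stretch are the first bases of the match that crosses the start. GGGCGG was found in 7 of the 9, all but Klf9 and Klf12, against 35.7% of all promoters, and CACCC in 6 of the 9, against 57.5%. TGACGTCA, held by 1.79% of all promoters, and TTATGTAA, held by 0.938%, matched no member. Klf12 was the least GC-rich of the 9 at 45.7% G and C, with 6 CpG dinucleotides, and the other 8 ran from 63.0% to 77.7% G and C with 23 to 47 CpG. These are matches of letters only.

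Fasting raised Klf9, Klf10 and Klf11 in both genotypes, and lowered Klf12 in LKO. Here and below, called means a limma adjusted p of 0.05 or less together with a change of more than 1.5-fold. The members were chosen with earlier results known, so shares of all genes here and below describe the counts and do not test them. In LWT, 3 of the 10 members were called, all higher, against 4.81% of all genes called higher and 5.24% called lower. In LKO, 4 of the 10 were called, 3 higher and 1 lower, against 5.88% of all genes called higher and 6.86% called lower. By adjusted p alone the counts were 3 of 10 in LWT, against 42.0% of all genes, and 7 of 10 in LKO, against 41.5%. The fed and fasted groups did not overlap for Klf9 and Klf11 in LWT, against 21.6% of all genes, and for Klf3, Klf9, Klf10, Klf11 and Klf12 in LKO, against 22.1%. The median fasting difference over the 10 members was 0.08 in LWT and -0.13 in LKO on the log2 scale, and over all genes tested it was -0.01 and -0.02. The comparisons share groups of mice, so their values for a member are given side by side and were not set against each other except through the interaction, which is the fasting difference in LKO minus that in LWT.

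**Figure D1:**
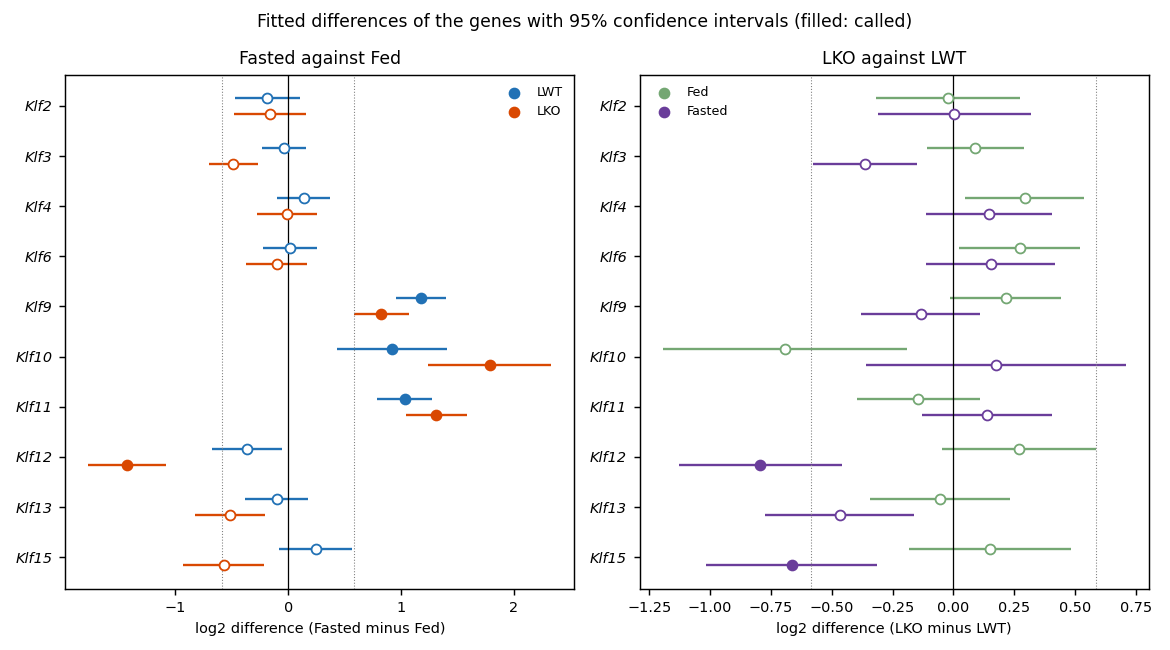
Fitted log2 differences of the 10 genes with 95% confidence intervals, Fasted minus Fed in LWT and LKO on the left and LKO minus LWT in the Fed and Fasted states on the right; filled points were called, open points were not, and dotted lines mark a 1.5-fold difference. Klf9, Klf10 and Klf11 lie above the upper line in both genotypes, and Klf12 in LKO lies at -1.43.

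Klf9, the glucocorticoid receptor target, rose on fasting in both genotypes. Its log2 signal ran from 11.04 to 11.64 (median 11.23) in LWT_Fed and from 12.32 to 12.54 (median 12.49) in LWT_Fasted. In LKO it ran from 11.10 to 11.79 (median 11.60) when fed and from 11.95 to 12.61 (median 12.36) when fasted. Each fasted array of either genotype was higher than each fed array of either genotype. The fitted fasting difference was 1.18 (SE 0.11, adjusted p = 1.7e-08) in LWT, a 2.26-fold rise, and 0.83 (SE 0.12, adjusted p = 8.16e-06) in LKO, a 1.77-fold rise. Within the 3 slides the difference was 1.13, 1.35 and 1.07 in LWT and 0.69, 0.91 and 0.79 in LKO, and without LKO_Fasted replicates 1 and 2 that in LKO was 0.91 (adjusted p = 5.58e-06). The interaction was -0.35 (95% confidence interval -0.68 to -0.02, adjusted p = 0.194), which did not pass the test. In order of group means the levels went from LWT_Fed to LKO_Fed, LKO_Fasted and LWT_Fasted, and only the step between the fed and the fasted pairs was free of overlap. The Klf9 probe lies at chr19:23240410-23240469 (mm9, plus strand).

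Klf10, also known as TGF-β-inducible early gene, had wider ranges and the largest fasting difference of the 10 in LKO. It ran from 9.54 to 11.00 (median 10.06) in LWT_Fed, from 10.54 to 11.80 (median 11.02) in LWT_Fasted, from 9.06 to 9.998 (median 9.49) in LKO_Fed and from 10.17 to 11.66 (median 11.45) in LKO_Fasted. The fed and fasted arrays overlapped in LWT and did not in LKO, where the lowest fasted array was replicate 4 at 10.17 and the next at 11.18. The fitted fasting difference was 0.92 (SE 0.24, adjusted p = 0.00321) in LWT, 1.89-fold, and 1.79 (SE 0.26, adjusted p = 9.98e-06) in LKO, 3.45-fold. By slide it was 1.10, 0.33 and 1.20 in LWT and 1.15, 2.05 and 2.02 in LKO, where leaving out LKO_Fasted replicates 1 and 2 gave 1.74 (adjusted p = 0.00013). LKO_Fed was the lowest of the 4 groups by mean. Fed LKO differed from fed LWT by -0.69 (95% confidence interval -1.19 to -0.19, adjusted p = 0.055), beyond 1.5-fold and short of the test, and its ranges overlapped. The interaction was 0.87 (95% confidence interval 0.13 to 1.60, adjusted p = 0.139) and did not pass either. The fed difference was called in 11 of 37 alternative settings, over which it ran from -0.88 to -0.52, and these included leaving out LWT_Fed replicate 6 (-0.83), LWT_Fasted replicate 1 (-0.69), LKO_Fed replicate 3 (-0.88), LKO_Fed replicate 6 (-0.79) or LKO_Fasted replicate 4 (-0.69).

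Klf11, the closest relative of Klf10, also rose in both genotypes. Its probe read from 6.56 to 7.07 (median 6.77) in LWT_Fed, from 7.19 to 8.12 (median 7.88) in LWT_Fasted, from 6.36 to 6.92 (median 6.78) in LKO_Fed and from 7.74 to 8.19 (median 8.02) in LKO_Fasted. As for Klf9, the fed arrays of both genotypes lay below all fasted arrays, and within a feeding state the genotypes overlapped. The fasting difference was 1.03 (SE 0.12, adjusted p = 4.07e-07) in LWT, 2.04-fold, and 1.31 (SE 0.13, adjusted p = 4.79e-08) in LKO, 2.49-fold. Slides gave 0.86, 1.24 and 0.87 in LWT and 1.37, 1.39 and 1.15 in LKO, where leaving out LKO_Fasted replicates 1 and 2 gave 1.25 (adjusted p = 1.7e-06). The interaction of 0.28 (95% confidence interval -0.08 to 0.65, adjusted p = 0.359) did not pass the test.

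Klf13, the remaining Sin3A-binding member, went the other way in LKO without reaching the minimum fold. It ran from 10.34 to 11.26 (median 10.62) in LWT_Fed, from 10.19 to 11.19 (median 10.36) in LWT_Fasted, from 10.29 to 10.75 (median 10.58) in LKO_Fed and from 9.81 to 10.35 (median 9.99) in LKO_Fasted. LKO_Fasted was the lowest group and overlapped with each of the others. Fasting gave -0.10 (SE 0.14, adjusted p = 0.581) in LWT and -0.52 (SE 0.15, adjusted p = 0.00872) in LKO, 1.43-fold lower, and fasted LKO was below fasted LWT by 1.38-fold, a log2 difference of -0.47 (SE 0.15, adjusted p = 0.0287). The interaction was -0.41 (95% confidence interval -0.83 to 0.01, adjusted p = 0.226). Leaving out LKO_Fasted replicate 3 brought the LKO fasting difference past the minimum fold at -0.61, and leaving out LWT_Fasted replicate 6 did so for the difference between fasted genotypes at -0.59. Without LKO_Fasted replicates 1 and 2 the former was -0.54 (adjusted p = 0.0182) and the latter -0.49 (adjusted p = 0.0565), short of the test.

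**Figure D2:**
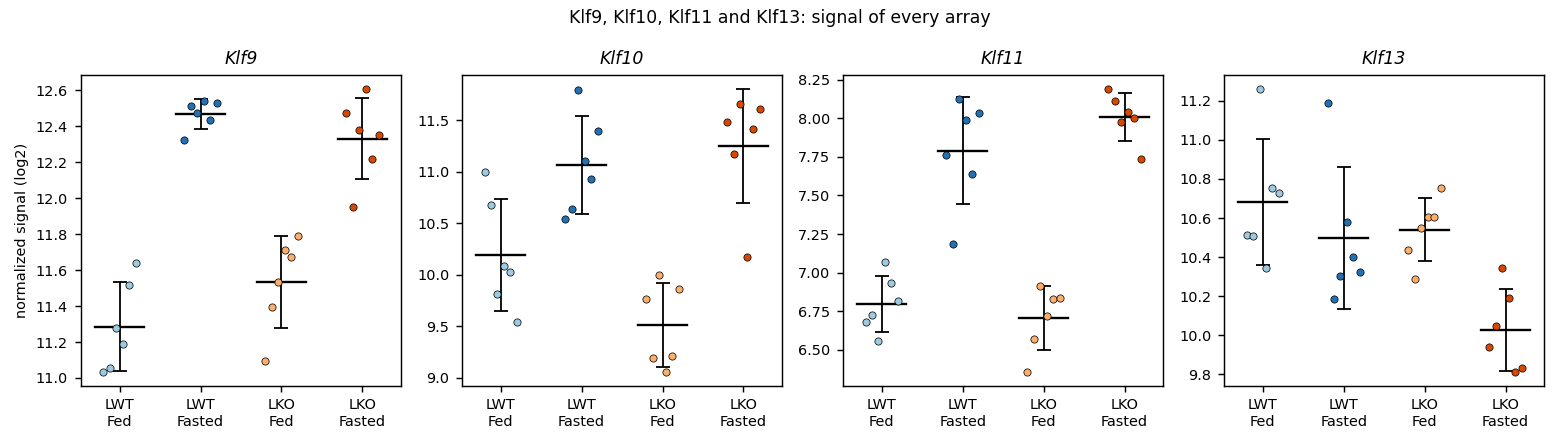
Normalized log2 signal of Klf9, Klf10, Klf11 and Klf13 on each array by group, with horizontal lines at the group mean and bars of 1 SD (n = 6). The fasted arrays lie above the fed arrays for Klf9 and Klf11 in both genotypes, and LKO_Fasted is the lowest group for Klf13.

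Klf12, a CtBP-binding repressor, had the largest interaction of the 10 members, falling on fasting in LKO. It ran from 9.33 to 9.98 (median 9.72) in LWT_Fed, from 9.15 to 9.73 (median 9.26) in LWT_Fasted, from 9.47 to 10.30 (median 9.99) in LKO_Fed and from 8.02 to 8.85 (median 8.63) in LKO_Fasted. All 6 LKO_Fasted arrays lay below each of the other 18 arrays. Fasting gave -0.36 (SE 0.15, adjusted p = 0.0533) in LWT, short of the test, and -1.43 (SE 0.17, adjusted p = 3.89e-07) in LKO, a 2.69-fold fall. The genotypes differed by 0.27 (95% confidence interval -0.05 to 0.59, adjusted p = 0.246) when fed and by -0.79 (95% confidence interval -1.13 to -0.46, adjusted p = 0.00136) when fasted, 1.73-fold lower in LKO. The interaction was -1.06 (SE 0.22, adjusted p = 0.00551). Slides gave -0.92, -1.20 and -2.01 for fasting in LKO, -0.40, -0.78 and -1.21 for LKO against LWT in fasted mice and -0.35, -1.19 and -1.56 for the interaction. Without LKO_Fasted replicates 1 and 2 these were -1.32 (adjusted p = 2.35e-06), -0.69 (adjusted p = 0.00618) and -0.96 (adjusted p = 0.00582). The other 3 Klf12 probes were also called lower on fasting in LKO. On fasting in LWT 2 of them passed the adjusted p without reaching the minimum fold, at -0.51 (adjusted p = 0.00761) and -0.30 (adjusted p = 0.0436), and the other gave -0.35 (adjusted p = 0.11). Between fasted genotypes 1 of them was called and the others were not, at -0.36 (adjusted p = 0.0456) and -0.33 (adjusted p = 0.225), and for the interaction 2 were called and the other was not, at -0.56 (adjusted p = 0.186). On the probe used, the 3 calls held in 37 alternative settings, and in 36 for the interaction, and the LWT difference, which ran from -0.45 to -0.27 over 37, passed the adjusted p in 10 and the minimum fold in none. The probe lies at chr14:100265567-100265626 (mm9, minus strand).

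Klf15, the factor of amino acid breakdown, differed between the genotypes when fasted. It ran from 12.90 to 13.31 (median 13.15) in LWT_Fed, from 12.87 to 13.74 (median 13.46) in LWT_Fasted, from 12.92 to 13.58 (median 13.28) in LKO_Fed and from 12.27 to 13.49 (median 12.70) in LKO_Fasted. LWT_Fasted was the highest group by mean and LKO_Fasted the lowest, and their arrays overlapped. Fasting gave 0.24 (95% confidence interval -0.08 to 0.57, adjusted p = 0.226) in LWT and -0.57 (SE 0.17, adjusted p = 0.011) in LKO, the latter 1.49-fold lower, just under the minimum fold. Fasted LKO was 1.59-fold below fasted LWT, a log2 difference of -0.67 (SE 0.17, adjusted p = 0.00776), and fed LKO differed from fed LWT by 0.15 (95% confidence interval -0.18 to 0.48, adjusted p = 0.577). The interaction of -0.82 (SE 0.23, adjusted p = 0.0356) was called. By slide the difference between fasted genotypes was -0.44, -0.68 and -0.77 and the interaction -0.81, -0.61 and -0.95.

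The Klf15 calls depended on single arrays more than those of Klf12. The difference between fasted genotypes fell short of the minimum fold without LWT_Fasted replicate 3 at -0.58 and without LKO_Fasted replicate 6 at -0.57, with adjusted p of 0.0311 and 0.0226. The interaction lost its call without LWT_Fed replicate 5 (-0.72), LWT_Fasted replicate 3 (-0.73), LWT_Fasted replicate 5 (-0.76), LWT_Fasted replicate 6 (-0.80), LKO_Fed replicate 3 (-0.74), LKO_Fed replicate 5 (-0.80), LKO_Fed replicate 6 (-0.80), LKO_Fasted replicate 3 (-0.79) or LKO_Fasted replicate 6 (-0.71), where its adjusted p ran from 0.0517 to 0.113. Fasting in LKO passed the minimum fold for Klf15 without LKO_Fed replicate 1 (-0.68), LKO_Fed replicate 4 (-0.59), LKO_Fasted replicate 4 (-0.64) or LKO_Fasted replicate 5 (-0.63). It also did so with no slide term, with slide as a random block and with the compared groups alone, at -0.59 in each. With LKO_Fasted replicates 1 and 2 left out, Klf15 gave -0.56 (adjusted p = 0.0365) on fasting in LKO, differed between fasted genotypes by -0.65 (adjusted p = 0.0317) and had an interaction of -0.80 (adjusted p = 0.0577).

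Klf3, the other CtBP-binding member, was lowest in LKO_Fasted by the probe used. It ran from 11.74 to 12.16 (median 11.91) in LWT_Fed, from 11.54 to 12.13 (median 11.90) in LWT_Fasted, from 11.92 to 12.15 (median 12.01) in LKO_Fed and from 11.39 to 11.66 (median 11.49) in LKO_Fasted. The LKO_Fasted arrays lay below all LKO_Fed and all LWT_Fed arrays and overlapped with LWT_Fasted. Fasting gave -0.03 (SE 0.09, adjusted p = 0.806) in LWT and -0.49 (SE 0.10, adjusted p = 0.000678) in LKO, which is 1.40-fold lower and under the minimum fold. LKO differed from LWT by 0.09 (SE 0.10, adjusted p = 0.576) when fed and by -0.36 (SE 0.10, adjusted p = 0.0146) when fasted, and the interaction was -0.45 (95% confidence interval -0.75 to -0.16, adjusted p = 0.0504). Without LKO_Fasted replicates 1 and 2 the fasting difference in LKO was -0.44 (adjusted p = 0.00678) and that between fasted genotypes -0.31 (adjusted p = 0.0768), the latter short of the test.

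**Figure D3:**
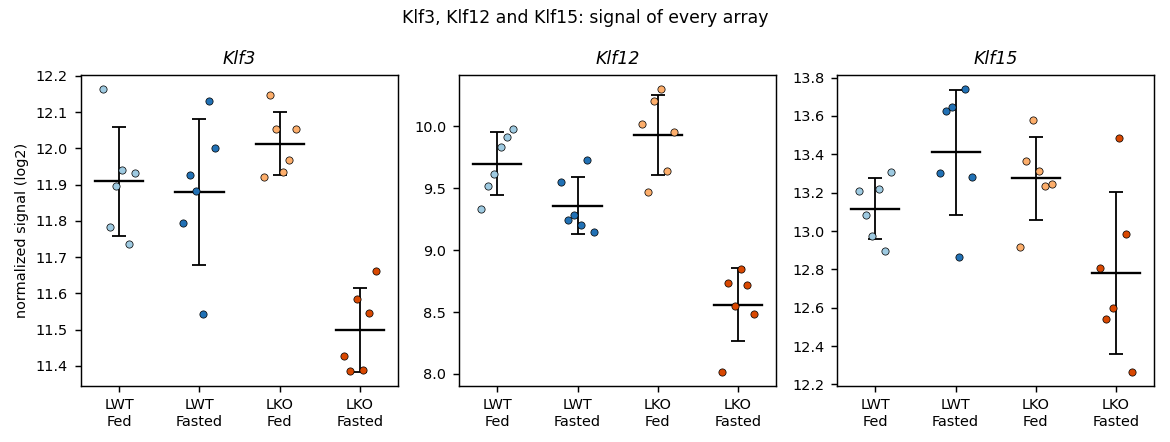
Normalized log2 signal of Klf3, Klf12 and Klf15 on each array by group, with horizontal lines at the group mean and bars of 1 SD (n = 6). LKO_Fasted has the lowest mean for each gene, and for Klf12 its 6 arrays lie below the other 18.

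Klf2, Klf4 and Klf6, the activators, did not pass the adjusted p in any of the 5 comparisons. Klf2, which is induced by blood flow in endothelium, ran from 9.48 to 9.98 (median 9.86) in LWT_Fed, from 9.23 to 10.46 (median 9.69) in LWT_Fasted, from 9.64 to 10.18 (median 9.80) in LKO_Fed and from 9.18 to 9.98 (median 9.62) in LKO_Fasted, all overlapping. Its fasting difference was -0.19 (95% confidence interval -0.48 to 0.10, adjusted p = 0.302) in LWT and -0.16 (95% confidence interval -0.48 to 0.16, adjusted p = 0.432) in LKO. Klf4, a factor of endothelium, myeloid cells and epithelia, ran from 8.42 to 9.13 (median 8.56), 8.35 to 9.43 (median 8.77), 8.66 to 9.22 (median 8.86) and 8.39 to 9.21 (median 8.79) in the same order of groups, and fasting gave 0.14 (95% confidence interval -0.10 to 0.37, adjusted p = 0.37) in LWT and -0.01 (95% confidence interval -0.28 to 0.25, adjusted p = 0.959) in LKO. Klf6 ran from 9.17 to 9.27 (median 9.21) in LWT_Fed, from 8.85 to 9.73 (median 9.27) in LWT_Fasted, from 9.37 to 9.67 (median 9.48) in LKO_Fed and from 8.97 to 9.90 (median 9.43) in LKO_Fasted. Its fed groups were tight and did not overlap, while its fasted groups spread over nearly the whole range. Fasting gave 0.02 (95% confidence interval -0.23 to 0.26, adjusted p = 0.933) in LWT and -0.10 (95% confidence interval -0.37 to 0.17, adjusted p = 0.565) in LKO. The intervals of these 6 fasting differences all lie inside a 1.5-fold change in either direction.

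**Figure D4:**
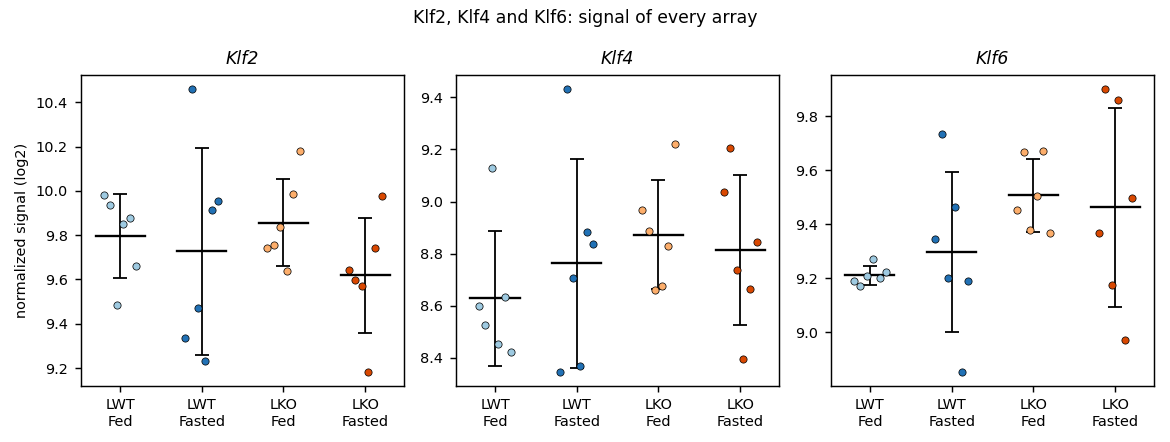
Normalized log2 signal of Klf2, Klf4 and Klf6 on each array by group, with horizontal lines at the group mean and bars of 1 SD (n = 6). The groups overlap for each gene except Klf6 in LWT_Fed against LKO_Fed, where LWT_Fed ends at 9.27 and LKO_Fed begins at 9.37.

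Since Klf2 and Klf4 are expressed in endothelium, the marker lists of non-hepatocyte cells are given beside them. In bulk liver, fewer cells of a type and less RNA per cell cannot be told apart. All 10 endothelial markers were well above background on 24 arrays, and their summed signal in log2 ran from 14.62 to 14.84 in LWT_Fed, 13.88 to 15.01 in LWT_Fasted, 14.23 to 14.89 in LKO_Fed and 14.11 to 14.86 in LKO_Fasted. Of these 10, fasting lowered Nos3 by call in LWT at -0.66 (adjusted p = 7.15e-05) and in LKO at -0.59 (adjusted p = 0.000709), and Lyve1 was called lower in fed LKO at -0.88 (adjusted p = 0.0386). The 8 Kupffer and myeloid markers summed to 15.42 to 15.89, 14.60 to 15.95, 15.04 to 15.80 and 14.75 to 16.72 in the same order, with 1 call, Lyz2 lower on fasting in LWT at -0.83 (adjusted p = 0.00823). The part of these markers in the Klf2, Klf4 and Klf6 values was not tested.

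Between genotypes in the fed state, none of the 10 members was called by limma on the probe used and none passed the adjusted p, against 3.85% and 16.7% of all genes. At an unadjusted p under 0.05 there were 3, against 30.4% of all genes, Klf4 at 0.29 (SE 0.12, adjusted p = 0.0947), Klf6 at 0.27 (SE 0.12, adjusted p = 0.131) and Klf10 as given above.  Klf6 alone had groups that did not overlap, against 8.62% of all genes. In the fasted state 2 members were called, Klf12 and Klf15, both lower in LKO, against 4.04% of all genes, and 4 passed the adjusted p, all lower, namely Klf3, Klf12, Klf13 and Klf15, against 20.7%. Klf12 alone had groups that did not overlap there, against 8.71% of all genes. The interaction was called for 2 members, Klf12 and Klf15, against 3.13% of all genes, and the same 2 passed the adjusted p, against 8.16%. The 3 members that rose in both genotypes had fasted differences between genotypes of -0.13 (95% confidence interval -0.38 to 0.11, adjusted p = 0.461) for Klf9, 0.17 (95% confidence interval -0.36 to 0.71, adjusted p = 0.689) for Klf10 and 0.14 (95% confidence interval -0.13 to 0.41, adjusted p = 0.496) for Klf11, and -0.05 (adjusted p = 0.821), 0.11 (adjusted p = 0.851) and 0.07 (adjusted p = 0.806) without LKO_Fasted replicates 1 and 2. Klf2, Klf4 and Klf6 differed between fasted genotypes by 0.00, 0.15 and 0.15. Over the 10 members the median LKO against LWT difference was 0.12 when fed, -0.07 when fasted and -0.25 for the interaction, against -0.014, -0.0040 and -0.0016 over all genes.

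Some markers of other tissues differed by call between genotypes beside the Klf12 and Klf15 differences in fasted mice. Of 4 adipose markers tested, 1 was called, Cfd, lower in LKO at -2.99 (adjusted p = 0.00784), and the adipose sum ran from 8.67 to 12.44 in LWT_Fasted and 8.52 to 9.02 in LKO_Fasted, with Adipoq well above background on 11 of 24 arrays. Of 2 pancreas markers tested, Cela1 was called lower at -0.76 (adjusted p = 0.000196), and the pancreas sum ran from 13.49 to 13.90 and 12.70 to 13.14, which do not overlap, while Cpa1, Pnlip and Ins2 were well above background on 0 of 24 arrays and Prss1 on 1. Of 4 erythroid markers, Alas2 was called lower at -0.83 (adjusted p = 0.00129), while Hba-a1, Hbb-b1 and Slc4a1 were not called, at 0.51 (adjusted p = 0.353), 0.39 (adjusted p = 0.56) and 0.16 (adjusted p = 0.774), and the sum ran from 16.16 to 17.93 and 16.92 to 18.09. In the fed state Cfd and Alas2 were called lower in LKO too, at -2.78 (adjusted p = 0.0109) and -0.80 (adjusted p = 0.00155), and on fasting Cela1 was called lower in LWT at -0.59 (adjusted p = 0.000237) and in LKO at -1.04 (adjusted p = 9.01e-07). The hepatocyte sum was 20.58 to 20.63 in LWT_Fasted and 20.52 to 20.56 in LKO_Fasted, without overlap, with none of 7 markers called. None of the 8 stellate markers was called between fasted genotypes, and on fasting 2 of them, Lrat and Col3a1, were called lower in each genotype. None of the 4 lymphocyte markers tested was called in any of the 5 comparisons. Without LKO_Fasted replicates 1 and 2 these markers kept their calls in the comparisons that use that group, and the Kupffer marker Marco was called higher in fasted LKO at 2.12 (adjusted p = 0.0262). The part of these markers in the results was not tested.

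Other probes named for a member served as a check. Of 19 probes, 18 passed the filter, and Klf2, Klf4, Klf6, Klf11 and Klf15 had a single probe, while the second Klf10 probe was not well above background. The second Klf9 probe gave 1.20 (adjusted p = 5.85e-08) for fasting in LWT and 0.75 (adjusted p = 9.98e-05) in LKO. All 4 Klf12 probes were called lower on fasting in LKO, the other 3 at -1.42 (adjusted p = 3.89e-07), -0.89 (adjusted p = 8.52e-06) and -0.91 (adjusted p = 0.00052). The first of these was also called between fasted genotypes at -0.68 (adjusted p = 0.0044) and for the interaction at -0.91 (adjusted p = 0.0148), and the second for the interaction at -0.59 (adjusted p = 0.0398). The 3 Klf3 probes disagreed. On fasting in LKO the others gave -0.67 (adjusted p = 0.000172), which was called, and 0.08 (adjusted p = 0.546), and in LWT -0.19 (adjusted p = 0.184) and 0.44 (adjusted p = 0.000165), the last higher where the probe used was not, so no direction is given for Klf3 in LWT. Between fasted genotypes they gave -0.45 (adjusted p = 0.0121) and -0.12 (adjusted p = 0.393), the latter short of the test, and the latter passed the adjusted p between fed genotypes at 0.25 (adjusted p = 0.0493). The other Klf13 probes gave -0.73 (adjusted p = 6.46e-06), which was called, and -0.38 (adjusted p = 0.0405) for fasting in LKO, and -0.49 (adjusted p = 0.00153) and -0.60 (adjusted p = 0.00466) between fasted genotypes, the latter called. On fasting in LWT these probes gave -0.28 (adjusted p = 0.0209) and -0.09 (adjusted p = 0.64), and for the interaction -0.46 (adjusted p = 0.0487) and -0.29 (adjusted p = 0.39), so the former passed the adjusted p in both, under the minimum fold, where the probe used did not. The latter probe is placed by the files on the plus strand, opposite to the other Klf13 probes.

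**Figure D5:**
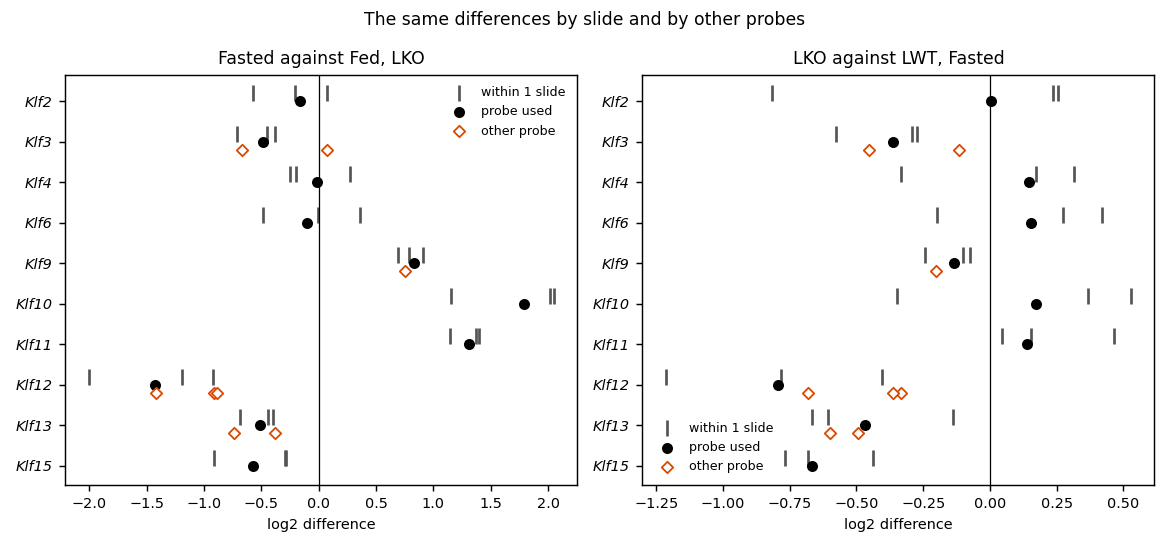
Log2 differences of the 10 genes for fasting in LKO on the left and for LKO against LWT in fasted mice on the right, as fitted with the probe used (black), with each other probe that passed the filter (diamonds) and within each of the 3 slides, 2 arrays a group (ticks). For Klf12 all probes and slides lie below 0 in both panels, and for Klf3 a diamond on the left lies at 0.08.

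Of 16 other KLF and SP zinc finger genes, 11 were tested, with none called on fasting in LWT, where the median difference was 0.15, and, with a median of -0.03, 2 called higher in LKO, Sp3 at 0.59 (adjusted p = 2.98e-07) and Sp5 at 0.99 (adjusted p = 6.44e-05). Sp6 was called higher in fed LKO at 0.64 (adjusted p = 0.00782), none was called between fasted genotypes, and Sp5 had a called interaction of 0.81 (adjusted p = 0.0327). These counts of 2, 1 and 1 of 11 stand beside the 5.88% of all genes called higher on fasting in LKO, 3.85% called between fed genotypes and 3.13% called for the interaction. Without LKO_Fasted replicates 1 and 2, Sp3 fell short of the minimum fold on fasting in LKO at 0.54 (adjusted p = 4.12e-06), and Sp6 was called there at -0.60 (adjusted p = 0.0011) and for the interaction at -0.90 (adjusted p = 0.00144).

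Genes of the processes in which these factors are known were counted in the same fit. The lists were also chosen with earlier results of these data known, so the share of all genes called is given as a description. It was 4.81% higher and 5.24% lower on fasting in LWT and 5.88% higher and 6.86% lower in LKO. Between fed genotypes it was 3.85%, between fasted genotypes 4.04% and for the interaction 3.13%. Of 10 glucocorticoid-responsive genes, a class that includes Klf9 and Klf15 as known targets, fasting gave 5 called higher and 1 called lower in LWT and 4 called higher and 1 called lower in LKO, with Cdkn1a at 3.26 (adjusted p = 3.21e-08) and 2.96 (adjusted p = 4.7e-07) and Fkbp5 at 2.12 (adjusted p = 6.37e-11) and 1.51 (adjusted p = 3.37e-08). The others called higher were Zbtb16 and Pck1 in both genotypes and Per1 in LWT, and Tsc22d3 was the gene called lower in both. Its group means were 14.11 in LWT_Fed, 13.61 in LWT_Fasted, 14.09 in LKO_Fed and 12.12 in LKO_Fasted, in log2 signal. In LKO this fall was larger than the rise of Fkbp5. In the fasted state 4 of the 10 were called lower in LKO and none higher, led by Tsc22d3 at -1.40 (adjusted p = 3.73e-05) and Cdkn1a at -1.14 (adjusted p = 0.0204) and followed by Zbtb16 and Fkbp5, while in the fed state Pck1 was called higher at 0.81 (adjusted p = 0.00916), and Tsc22d3 had a called interaction of -1.38 (adjusted p = 0.00323). Without LKO_Fasted replicates 1 and 2, Cdkn1a between fasted genotypes was -1.04 (adjusted p = 0.0811), short of the test, and Fkbp5 had a called interaction of -0.65 (adjusted p = 0.0221). The list's median was 0.57 on fasting in LWT, 0.01 in LKO and -0.60 between fasted genotypes, where Klf9, Klf12 and Klf15 stood at -0.13, -0.79 and -0.67. Whether the list and these members are linked was not tested. Of 14 genes of amino acid breakdown and gluconeogenesis, the programme for which Klf15 is known, fasting gave 6 called higher and 0 called lower in LWT, with Got1 at 2.03 (adjusted p = 2.21e-08) and Pck1 at 1.60 (adjusted p = 1.31e-06), and 5 called higher and 1 called lower in LKO, with Got1 at 1.61 (adjusted p = 2.21e-06) and Tdo2 at 1.11 (adjusted p = 3.6e-08), followed by Pck1, Gpt2 and G6pc. The medians were 0.56 and 0.43. Prodh, which starts proline breakdown, was the gene called lower in LKO on fasting at -0.76 (adjusted p = 7.43e-07) and the sole call between fasted genotypes at -0.95 (adjusted p = 4.47e-07). Pck1 and Got1 were called higher in fed LKO, Got1 at 0.60 (adjusted p = 0.0374), and Sds had a called interaction of -1.08 (adjusted p = 0.0321), which was -0.88 (adjusted p = 0.0653) and not called without LKO_Fasted replicates 1 and 2.

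Of 12 insulin-repressed FOXO1 targets, fasting gave 7 called higher and 0 called lower in LWT, led by Pdk4 at 2.64 (adjusted p = 1.56e-06) and Irs2 at 2.61 (adjusted p = 3e-09), and 7 called higher and 1 called lower in LKO, led by Pdk4 at 4.32 (adjusted p = 5.21e-09) and Irs2 at 1.92 (adjusted p = 9.48e-07), with Sesn3 lower at -0.71 (adjusted p = 7.49e-06). The medians were 0.70 and 0.59. In fed LKO 3 were called higher, with Igfbp1 at 1.89 (adjusted p = 0.000523) and Irs2 at 1.60 (adjusted p = 7.71e-05) and Pck1 as above. In the same comparison Klf9, Klf10 and Klf11 stood at 0.21, -0.69 and -0.14. None of these 3 passed in the main fit, and Klf10 was called in 11 of 37 alternatives. A link between these members and the list was not tested. In fasted LKO 3 were called higher, Igfbp1 at 1.63 (adjusted p = 0.00189), Pdk4 and Irs2, and Foxo1 was called lower at -0.63 (adjusted p = 0.000741). The interaction was called for Pdk4 at 1.68 (adjusted p = 0.0426) and Foxo1 at -0.66 (adjusted p = 0.0159). Pdk4 lost both calls without LKO_Fasted replicates 1 and 2, at 1.21 (adjusted p = 0.055) between fasted genotypes and 1.72 (adjusted p = 0.0509) for the interaction. Of 14 circadian clock genes tested, fasting gave 4 called higher and 2 called lower in LWT and 1 called higher and 2 called lower in LKO, with Per2 at -1.28 (adjusted p = 9.82e-08) and -1.50 (adjusted p = 3.31e-08) and Nr1d1 at 0.82 (adjusted p = 0.000444) and 0.74 (adjusted p = 0.00281). Per1, Nr1d2 and Nfil3 were the others called higher in LWT, and Per3 was the other called lower in both. The medians were 0.31 and -0.11. None was called in fed LKO, and Hlf was called lower in fasted LKO at -0.70 (adjusted p = 0.000227) with an interaction of -0.59 (adjusted p = 0.0291). Of 12 immediate early genes, a class of rapid response genes to which Klf10 is often added, 4 were called higher on fasting in LWT and 7 in LKO with none lower, led by Myc at 1.59 (adjusted p = 0.00287) and Jun at 1.48 (adjusted p = 5.6e-05), followed by Egr1 and Junb, in LWT and by Jun at 2.17 (adjusted p = 1.65e-06) and Egr1 at 2.06 (adjusted p = 0.000257) in LKO. The medians were 0.31 and 0.80. None was called in fed LKO, and Ier3 and Nr4a1 were called higher in fasted LKO at 1.15 (adjusted p = 6.85e-07) and 1.36 (adjusted p = 0.000644), Ier3 with an interaction of 0.97 (adjusted p = 0.000695). Nr4a1 had a called interaction only without LKO_Fasted replicates 1 and 2, at 1.17 (adjusted p = 0.0485). The calls of these lists not named as changed were kept without those arrays.

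For the 4 members called on fasting, the 3 genes outside the family with the most similar signal were found among 21322 genes by Pearson's r over the 24 arrays, as a description. These arrays share the group differences, so r over deviations from group means is also given. The genes were picked by r over the same arrays, so the r within groups is no independent check of likeness. Klf9 was followed most closely by Got1 (r = 0.939), a cytosolic aspartate aminotransferase, Crtc2 (r = 0.938), a coactivator of CREB, and Ccng2 (r = 0.938), a cyclin G, with r of 0.63, 0.46 and 0.69 within groups. Klf10 was followed by G0s2 (r = 0.943), an inhibitor of adipose triglyceride lipase, Inhbe (r = 0.922), an inhibin β chain made in liver, and Abhd1 (r = 0.916), with 0.84, 0.81 and 0.74 within groups. Klf11 was followed by Klhl7 (r = 0.961), a ubiquitin ligase adaptor, Nek7 (r = 0.954), a NIMA-related kinase, and Oser1 (r = 0.954), with 0.82, 0.65 and 0.64 within groups. Klf12 was followed by Rfc5 (r = 0.906), a replication factor C subunit, Aldh4a1 (r = 0.901), which takes part in proline breakdown, and Chac2 (r = 0.900), which degrades glutathione, with 0.62, 0.49 and 0.50 within groups.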

How the data were processed

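Liver RNA was measured on Agilent SurePrint G3 mouse arrays in 1 colour, with an array for each mouse. Per the file headers, the deposited values are spot intensities read by Agilent Feature Extraction 10.10.1.1, neither background-subtracted nor scaled between arrays (median signal). The authors also deposited a matrix of 32595 probes as log2 values, which served as an alternative. By their account the data were filtered, corrected for the washing bath and quantile normalized. The matrix had column medians of 8.06, and its scale and order matched the scanner's median signals, with a lowest Spearman rho of 0.999996. Whether it carries the correction for the bath was not determined.

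From the median signal of 56605 probes, spots flagged as outliers were left out, and 32197 probes well above background on at least 5 of 6 arrays of at least 1 group were kept, log2 transformed and quantile normalized. 90 probe values were missing, and no spot was saturated. A model of group means, slide (3 slides of 8 arrays, 2 of each group, in place of the bath, which the labels do not name) and array weights was fitted with limma 3.58.1 in R 4.3.3 (lmFit, arrayWeights, eBayes). The tests were two-sided, and Benjamini-Hochberg adjustment covered all 32197 probes. Fitted differences are weighted and can depart from differences of plain means.

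The members and gene lists were chosen with earlier results of these data known. The lists were the other KLF and SP genes, amino acid breakdown and gluconeogenesis, glucocorticoid-responsive genes, circadian clock, insulin-repressed FOXO1 targets, immediate early genes, and markers of hepatocytes, endothelium, Kupffer and myeloid cells, stellate cells, lymphocytes, adipose tissue, pancreas and erythroid cells. All members were named, with the 2 largest called genes of a list where it was discussed, and the 3 genes most like each member called on fasting. For the glucocorticoid-responsive list on fasting in LKO, Fkbp5 was named with its value although the fall of Tsc22d3 was larger. Other genes of a count of 5 or fewer were named after their values were seen. Marker sums are sums of signal over a list, in log2. The fit was tested on simulated data. Probe coordinates are those of the files (mm9), without an annotation of exons here. Figures were drawn with matplotlib.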

Additional observations from a re-analysis of the deposited data

Results flagged for a closer look

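A single mouse stood far from the others of its group for 2 of the 40 combinations of member and group, where chance alone marks about 1 in 20. Klf4 in LWT_Fed replicate 3 was at 9.13, against 8.42 to 8.64 on the other 5 arrays, and this array also had the lowest weight in the fit, 0.315. Klf10 in LKO_Fasted replicate 4 was at 10.17, against 11.18 to 11.66 on the other 5, and its weight of 0.353 was the next lowest. Without the latter array fasting in LKO remained a called rise of Klf10.

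The response to fasting differed between the genotypes, by the interaction term itself, for Klf12 at -1.06 and, less firmly, for Klf15 at -0.82. The interaction was called in 36 of 36 alternatives for Klf12 and in 24 of 36 for Klf15, where its limma adjusted p reached 0.113. For Klf12 both genotypes had values below 0, -0.36 in LWT and -1.43 in LKO, and for Klf15 the values were 0.24 and -0.57.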

How the results depend on the processing

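The fasting calls of Klf9, Klf10 and Klf11 in both genotypes and of Klf12 in LKO held in all 37 alternatives run on the probes used, 24 of which left out an array. Among 1880 values of members under alternatives, 44 changed sign, of which 42 passed the adjusted p under neither setting. The other 2 came from the third Klf3 probe, at 0.44 on fasting in LWT and 0.075 in LKO. The number of members called between fed genotypes, 0 in the report, became 1 (Klf10) with no slide term, with slide as a random block, with a replicate block added to the slide term, with the processed signal scaled to its 75th percentile, with median centring and with the authors' matrix. The interaction count of 2 became 1 (Klf12) with no array weights, with no filter on dim probes, and without LKO_Fasted replicates 1 and 2, the last chosen after seeing the data. The count of 2 between fasted genotypes became 1 (Klf12) with the compared groups alone and 4 with no minimum fold, where the 4 for fasting in LKO became 7. Array weights fitted gene by gene, also added after seeing the data, changed no count. Leaving out each array in turn gave 3 to 3 members called on fasting in LWT, 4 to 5 in LKO, 0 to 1 between fed genotypes, 1 to 3 between fasted genotypes and 1 to 2 for the interaction. Replicate numbers were not treated as pairing the mice. Over 36 pairs with the same number the correlation of deviations from group and slide means ran from -0.28 to 0.21 and exceeded 0.1 in 8. These values cannot settle whether the numbers pair mice. With the replicate block the counts were 3, 4, 1, 2 and 2 in the order of these comparisons, and Klf15 had an interaction of -0.84 (limma adjusted p = 0.0489), while Klf13 fell short between fasted genotypes at -0.45 (limma adjusted p = 0.0525). With no depth in array data, the spread over 6 mice sets what could be detected.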
